A study of Mus musculus with 6 samples.

Results

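Cycling cells of the liver were selected on 6 genes of the dividing cell in a single-cell RNA sequencing study of non-parenchymal cells, the liver's cells other than hepatocytes. A cell was chosen by its summed count of unique molecular identifiers (UMIs, tags that mark single captured transcripts) of Mki67, Top2a, Birc5, Ube2c, Cdk1 and Ccna2, which had to reach 5. The rule was met by 746 of the 27544 cells kept (2.71%), where a kept cell had under 5000 genes detected and under 5% of its UMIs from mitochondrial genes. Vehicle libraries gave 429 of these cycling cells and ginkgetin libraries 317. The levels of the 6 genes in cycling cells are therefore a description of the choice and are given with no test.

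Cells that divide pass from a gap phase (G1) through DNA synthesis (S) to a second gap and mitosis (G2/M), and each phase has its own set of transcripts. Cyclin A2 (Ccna2) and its partner kinase Cdk1 drive the passage into mitosis, Top2a untangles replicated DNA, Mki67 coats mitotic chromosomes, Birc5 belongs to the complex that corrects chromosome attachment, and Ube2c helps the anaphase-promoting complex to destroy cyclins. In the adult liver most cells rest, while resident macrophages (Kupffer cells), dendritic cells, lymphocytes and sinusoidal endothelial cells can renew themselves by local division.

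The mice were male C57BL/6J, bought at 8 weeks of age and all fed a high-fat diet for 24 weeks. For the last 8 weeks they received by gavage either the solvent (vehicle, DMSO by the study's methods) or ginkgetin, a biflavone made by plants such as ginkgo, at a daily dose of 10 mg/kg. There were 3 libraries in each group, both groups had the diet, and the sources used here give 3 samples a group without saying whether each library came from 1 mouse, so p-values measure the spread between libraries. The libraries summed to between 13128697 and 61796882 UMIs each.

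Many genes that peak in G2/M share short promoter elements, and the windows of the rule genes are shown because the choice of cells rests on these genes. RefSeq promoter windows of build GRCm38.p6, from 250 bases before to 50 after the transcription start, were matched by symbol for 5 of the 6 rule genes. The cell cycle genes homology region (CHR) was searched as TTTGAA and the CCAAT box as CCAAT, both on either strand, where they read TTCAAA and ATTGG. In the 4 windows printed, capitals mark these letters. A pair of CCAAT boxes on opposite strands can overlap, as in Ube2c. The windows lie at chr10:69352863-69353162 on the minus strand (Cdk1), chr7:135716330-135716629 on the minus strand (Mki67), chr11:99024140-99024439 on the minus strand (Top2a) and chr2:164769679-164769978 on the plus strand (Ube2c).
Cdk1: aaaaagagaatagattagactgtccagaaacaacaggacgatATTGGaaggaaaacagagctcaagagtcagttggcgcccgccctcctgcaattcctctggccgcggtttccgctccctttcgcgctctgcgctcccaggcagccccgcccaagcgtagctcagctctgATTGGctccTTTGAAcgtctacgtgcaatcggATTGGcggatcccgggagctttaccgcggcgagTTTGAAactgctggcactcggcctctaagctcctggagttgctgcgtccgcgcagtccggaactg
Mki67: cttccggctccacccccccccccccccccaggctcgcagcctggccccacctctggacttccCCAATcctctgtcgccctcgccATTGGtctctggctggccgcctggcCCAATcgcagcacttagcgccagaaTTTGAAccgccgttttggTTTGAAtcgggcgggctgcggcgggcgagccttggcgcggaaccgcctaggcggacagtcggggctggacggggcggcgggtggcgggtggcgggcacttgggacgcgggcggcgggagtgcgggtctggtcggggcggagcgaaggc
Top2a: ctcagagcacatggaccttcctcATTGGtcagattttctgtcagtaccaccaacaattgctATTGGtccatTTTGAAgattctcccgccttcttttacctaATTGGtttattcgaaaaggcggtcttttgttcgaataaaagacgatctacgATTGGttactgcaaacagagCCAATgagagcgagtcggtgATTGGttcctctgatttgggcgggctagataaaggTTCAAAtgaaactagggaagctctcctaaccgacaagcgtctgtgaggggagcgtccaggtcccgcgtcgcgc
Ube2c: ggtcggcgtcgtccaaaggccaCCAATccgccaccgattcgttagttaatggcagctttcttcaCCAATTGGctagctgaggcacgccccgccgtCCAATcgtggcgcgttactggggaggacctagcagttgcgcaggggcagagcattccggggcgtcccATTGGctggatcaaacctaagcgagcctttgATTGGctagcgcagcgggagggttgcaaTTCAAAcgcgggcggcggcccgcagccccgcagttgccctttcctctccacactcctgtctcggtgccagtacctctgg

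Each of these 4 windows held at least 1 CHR and 3 or more CCAAT boxes, and the fifth, Birc5, held neither run of letters. Over all 32851 windows, 17.9% held a CHR, 37.4% a CCAAT box and 6.95% both. Among the 38 windows matched to 35 of the 40 genes of a G2/M list, 73.7% held a CHR, 81.6% a CCAAT box and 65.8% both. Among the 33 windows matched to 28 of the 34 genes of an S-phase list, 9.09% held a CHR and 54.5% a CCAAT box. E2F sites, searched on either strand as TTTGGCGC, TTTCCCGC, TTTGCCGC or TTTCGCGC, were in 33.3% of the S-phase windows, in 0 of the 38 G2/M windows and in 2.26% of all windows. A match is a run of letters and was not tested as a binding site.

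The summed count of the 6 genes ran without a gap across the limit. A count of 0 for the 6 genes was found in 24259 kept cells (88.1%), while 581 of the 746 cycling cells (77.9%) had 10 or more UMIs. Just inside the limit lay 44 cells with 5 UMIs and just outside it 73 cells with 4. Ube2c gave 23.1% of the rule's UMIs, Top2a 22.1%, Birc5 19.6%, Mki67 17.7%, Cdk1 9.26% and Ccna2 8.29%. Mki67 was detected in between 79.0% and 94.6% of a library's cycling cells and in between 1.38% and 4.58% of its other cells. Free RNA in the droplets can give such single UMIs in cells that do not express a gene.

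Several library features moved with the counts that follow, and their part in the results was not tested. Cycling cells held more UMIs than other cells in each library. The median was 13685 against 4233 in vehicle 1, 15186 against 3766 in vehicle 2 and 18691 against 8232 in vehicle 3. In the ginkgetin libraries it was 8686 against 2443, 8904 against 2605 and 11093 against 6207. Markers of 2 unrelated lineages were held by 30.1% of the cycling cells of ginkgetin 2 and by 3.36% to 9.33% of those of the other libraries, and no doublets were removed. Replicate 3 of both groups differed from replicates 1 and 2 in its barcodes and gene symbols. Libraries within replicates 1 and 2 shared up to 85 barcodes, those of replicate 3 shared 10, and across the 2 sets at most 1 was shared, while no cycling barcode was shared between any pair. In addition, 250 genes with over 500 UMIs in replicates 1 and 2 were at 0 in replicate 3, and 293 were so in the other direction.

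Across all lineages the share of cycling cells was 3.49%, 2.998% and 2.88% in the vehicle libraries and 3.69%, 1.63% and 2.06% in the ginkgetin libraries. Their exact 95% binomial intervals, which cover counting error only, ran from 3.04% to 3.99% in vehicle 1 and from 1.35% to 1.96% in ginkgetin 2. Ginkgetin 1 was the highest of all and ginkgetin 2 the lowest, so the groups overlapped. The means were 3.12% ± 0.325 (SD, n = 3) and 2.46% ± 1.09 (SD, n = 3), and a two-sided exact permutation test gave p = 0.4. With 3 libraries against 3 that test cannot go below 0.1.

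To give each cycling cell a lineage, the 26798 kept cells that did not meet the rule were clustered without cell-cycle genes, and a cycling cell took the class held by at least 10 of its 15 nearest cells. All 15 neighbours were of 1 class for 662 of the 746 cells (88.7%), and for 12 cells no class reached 10. Macrophage-like cells were the most numerous with 217, followed by 150 dendritic-like, 129 T cell-like, 79 endothelial-like, 53 plasma cell-like, 17 NK cell-like, 11 B cell-like, 10 hepatocyte-like and 9 monocyte-like cells. A further 55 lay among clusters that stayed unnamed. Relative to the size of the lineage the order changed, and it also depended on the group. Over the pooled libraries, 11.1% of dendritic-like, 9.71% of plasma cell-like and 5.27% of macrophage-like cells were cycling. Among T cell-like cells the pooled share was 2.60%, and for NK cell-like cells it was 1.87%. Endothelial-like, B cell-like and monocyte-like cells stood at 1.10%, 0.419% and 0.378%. The rule is a fixed count, and depth differed between lineages. Cells below the rule had median UMIs of 9709 (dendritic-like), 8481 (macrophage-like), 7651 (plasma cell-like) and 6526 (monocyte-like). For T cell-like, endothelial-like and B cell-like cells the medians were 3344, 2659 and 2331. Cells thinned to 2000 UMIs, with a limit of 3, gave means of 6.02% and 8.37% (dendritic-like) and 1.53% and 0.976% (endothelial-like), vehicle first. The part of depth was not tested. By the mean of the libraries, plasma cell-like cells came first in vehicle libraries with 11.7% ± 5.74, ahead of 10.0% ± 1.39 for dendritic-like cells, and T cell-like cells in ginkgetin libraries, with 3.24% ± 1.97, stood beside 2.90% ± 0.588 for macrophage-like cells (SD, n = 3 each), differences within the spread of the libraries.

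**Figure D1:**
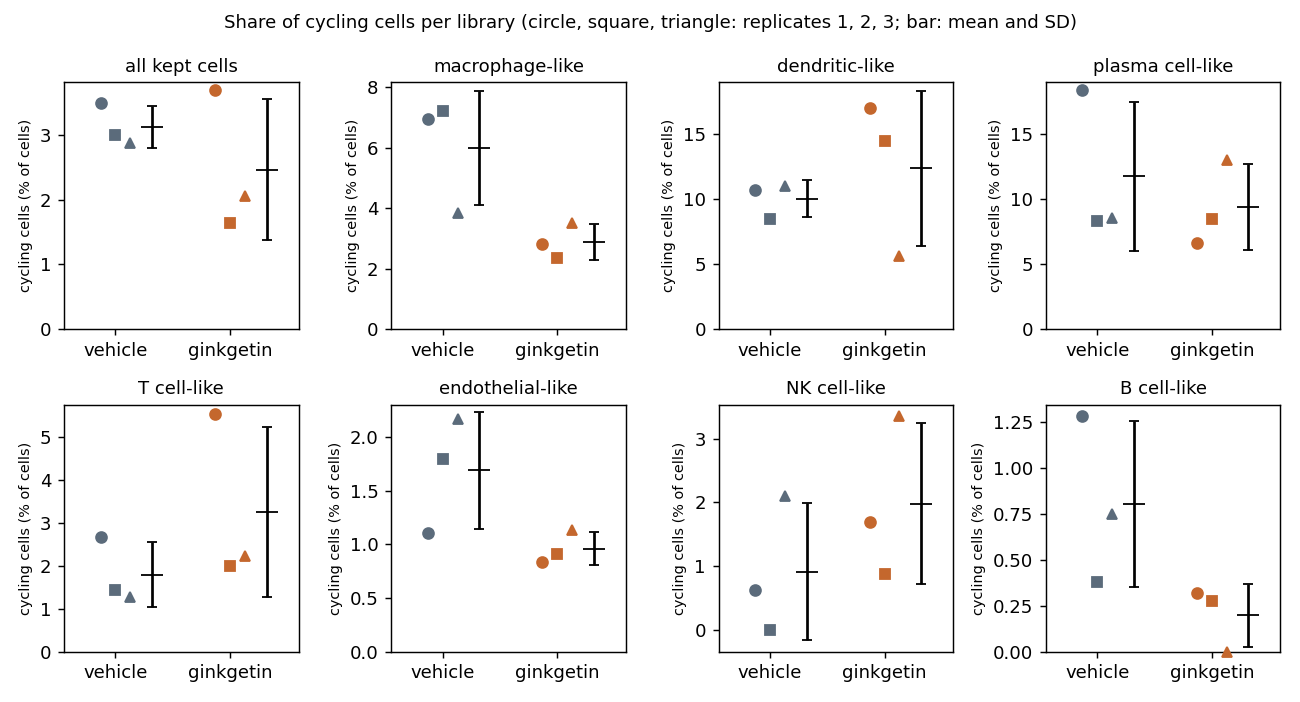
Share of cells that met the cycling rule, in percent of all kept cells or of the lineage's kept cells, for each library (circles, squares and triangles are replicates 1, 2 and 3, and black bars are the mean with the SD of 3 libraries). The vehicle and ginkgetin points of macrophage-like and B cell-like cells do not overlap, while those of the other panels do.

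Macrophage-like cells, the resident and recruited phagocytes of the liver, were the largest cycling population of each vehicle library. Their own cycling share was 6.95%, 7.24% and 3.84% in the vehicle libraries and 2.83%, 2.34% and 3.51% in the ginkgetin libraries. Each vehicle library lay above each ginkgetin library, with vehicle 3 and ginkgetin 3 the closest. The means were 6.01% ± 1.88 and 2.90% ± 0.588 (SD, n = 3 each), with p = 0.1 in the exact permutation test, the smallest it allows, and 0.55 after Benjamini-Hochberg adjustment over 11 lineages. Within replicates 1 and 2 the means were 7.09% and 2.59%, and between the libraries of replicate 3 the difference was 0.325 percentage points. Thinning each cell to 2000 UMIs together with a lower limit of 3 UMIs turned the direction, with 3.81% ± 1.58 in vehicle and 4.67% ± 1.03 in ginkgetin libraries (exact permutation p = 0.5). The difference, -3.11 percentage points as given first, was -3.72 with the limit of 3 UMIs and no thinning, -4.81 without the cell filter, -1.64 in cells of 250 to 5000 UMIs and -1.32 when cycling cells were clustered by themselves. In that last setting a cluster of 73 cells led by Pf4, Gpnmb and Trem2, with 6 macrophage markers, stayed unnamed and so left the class. It held 33 and 38 cells of vehicle 1 and 2 but 1 each of ginkgetin 1 and 2. Cells too shallow for thinning were 0, 13 and 19 macrophage-like cells of the vehicle libraries but 40, 121 and 239 of the ginkgetin libraries.

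The counts behind these shares were unequal, since the ginkgetin libraries held fewer macrophage-like cells. The vehicle libraries had 89 of 1281, 55 of 760 and 44 of 1146 cells cycling, and the ginkgetin libraries 3 of 106, 6 of 256 and 20 of 569. Macrophage-like cells formed 42.4%, 55.0% and 37.0% of the cycling cells in the vehicle libraries but 2.33%, 5.31% and 26.7% in the ginkgetin libraries. The means of 44.8% ± 9.25 and 11.4% ± 13.3 (SD, n = 3 each) did not overlap, with p = 0.1 by exact permutation and 0.55 adjusted. With the cycling cells clustered by themselves, where the unnamed cluster led by Pf4, Gpnmb and Trem2 was outside the class, the means were 27.5% and 10.6%. Over all kept cells of a library, macrophage-like cells made up 23.9% ± 3.35 in vehicle and 7.45% ± 7.08 in ginkgetin libraries (SD, n = 3 each), so the shift in the makeup of the cycling cells went along with the makeup of the library as a whole.

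The macrophage-like cells of the groups also lay in different clusters. In vehicle 1 and 2 the cycling cells joined a cluster led by Fabp7, Folr2 and Wfdc17 with Clec4f, where 8.03% of 685 and 4.53% of 375 cells cycled, and a cluster led by Ms4a7, Pf4, Trem2 and Gpnmb without Clec4f, where 5.71% of 595 and 9.92% of 383 did. In vehicle 3 they joined a Gpnmb and Trem2 cluster, with 25 of 739 cells (3.38%), and a Mmp12 and Clec4f cluster, with 17 of 399 (4.26%), besides 2 of 8 cells in a cluster led by Marco, C6 and Fcna with Cd163. Ginkgetin 3 had 20 of 527 cells (3.80%) cycling in that last cluster. Of the 9 cycling cells of ginkgetin 1 and 2, 5 joined a cluster led by Cxcl13 and Cd163, which held 288 cells, and 4 the cluster led by Ms4a7.

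In Trem2, cycling macrophage-like cells stood near the other macrophage-like cells of their own vehicle library. Under ginkgetin the values rest on too few UMIs for this comparison. Trem2, a lipid receptor of lipid-associated macrophages, was at 967, 1202 and 1279 counts per 1000000 (CPM) of the summed cycling cells in the vehicle libraries, and at 945, 1212 and 1283 CPM in the other macrophage-like cells there. In the ginkgetin libraries cycling cells had 348, 217 and 10.1 CPM, from only 10, 8 and 1 UMIs, and other cells 102, 114 and 110 CPM. Gpnmb, a glycoprotein of the same macrophages, was at 314, 525 and 539 CPM in cycling cells of the vehicle libraries and at 0 in those of all 3 ginkgetin libraries. The values of Trem2 and Gpnmb in cycling cells thus did not overlap between groups, and neither did those of the macrophage-like cells that did not cycle. The Gpnmb values of 0 rest on 3, 6 and 20 cycling cells, so a low level could go unseen.

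Markers of resident Kupffer cells were measured in the same sums, which do not show whether 1 cell held both kinds of marker. Of the cycling macrophage-like cells of the vehicle libraries, 91 joined clusters with Clec4f and 97 joined clusters without it. Clec4f, the Kupffer cell lectin, was at 922, 282 and 921 CPM in cycling cells of the vehicle libraries and at 488, 489 and 3996 CPM in those of the ginkgetin libraries. Ginkgetin 3 exceeded each vehicle value, while ginkgetin 1 and 2 exceeded that of vehicle 2 alone. Timd4, a receptor for dying cells on embryonically derived Kupffer cells, was at 33.6, 9.20 and 44.2 CPM in vehicle and at 105, 109 and 505 CPM in ginkgetin libraries. Cd163, the haemoglobin scavenger receptor, was at 1.34, 5.11 and 0 CPM in vehicle and at 244, 27.2 and 444 CPM in ginkgetin libraries. Timd4 and Cd163 were lower in each vehicle library than in each ginkgetin library, also among the cells that did not cycle. The cycling sums of ginkgetin 1 and 2 came from 3 and 6 cells, so Timd4 and Cd163 in them rest on few UMIs. Cycling macrophage-like cells reached 10 in only 1 ginkgetin library, so no gene was tested between groups in them.

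**Figure D2:**
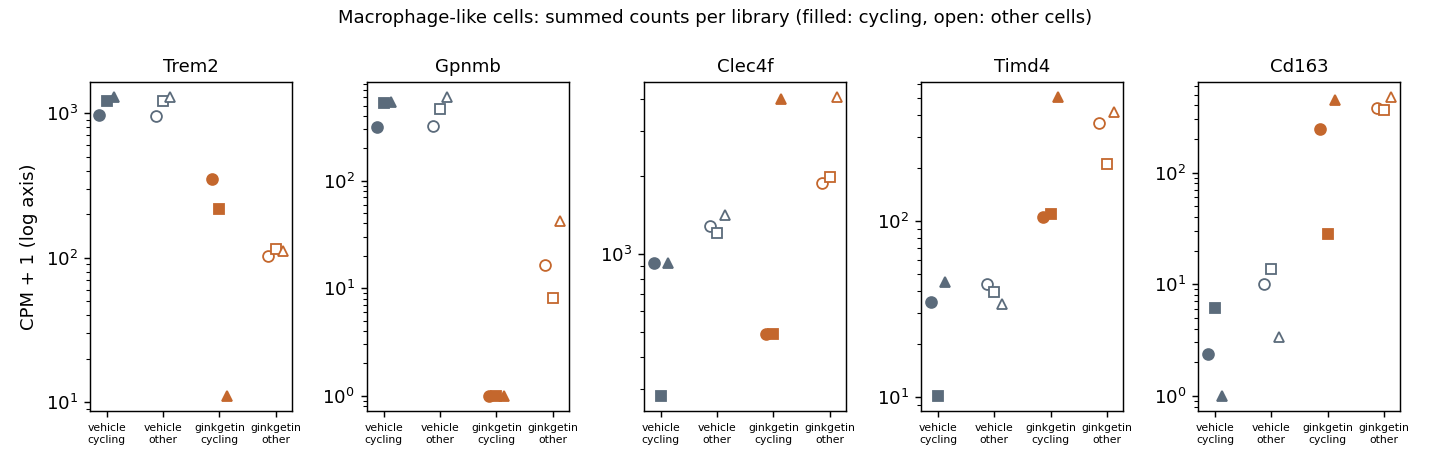
CPM plus 1 (log axis, a separate range for each gene) of 5 genes in the summed macrophage-like cells of each library, with filled symbols for cycling and open symbols for other cells, and circles, squares and triangles for replicates 1, 2 and 3. Trem2 and Gpnmb are higher and Timd4 and Cd163 lower in the vehicle than in the ginkgetin libraries, in cycling and in other cells alike, and Gpnmb is at 0 in cycling cells of the 3 ginkgetin libraries.

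Dendritic-like cells, which present antigen to T cells, had the highest pooled cycling share of the named lineages. The share was 10.7%, 8.43% and 10.97% in the vehicle libraries and 16.9%, 14.5% and 5.60% in the ginkgetin libraries. Ginkgetin 1 and 2 lay above the vehicle libraries and ginkgetin 3 below them. The means were 10.0% ± 1.39 and 12.3% ± 5.97 (SD, n = 3 each), with an exact permutation p of 0.5. Without cells that held markers of 2 lineages the difference went from 2.32 to 1.08 percentage points, and the cycling dendritic-like cells of ginkgetin 2 from 31 to 21. When cycling cells were clustered by themselves, 28 cells of ginkgetin 2 lay in a cluster with Xcr1 that was led by Dcn, Clu and Spp1, and the part of this in the share was not tested. Among clusters led by Xcr1, the chemokine receptor of cross-presenting dendritic cells, 98 of 540 cells (18.1%) cycled. In clusters marked by Cd209a, a lectin of the other conventional subset, 52 of 807 (6.44%) did. By library, the Xcr1 clusters had 22.2%, 16.4% and 19.7% of cells cycling under vehicle and 20.6%, 20.8% and 4.29% under ginkgetin. The Cd209a clusters had 6.32%, 4.27% and 4.81% under vehicle and 12.7%, 8.33% and 7.27% under ginkgetin. Thus the Xcr1 clusters were the higher in 5 of 6 libraries and the lower in ginkgetin 3, where they rested on 3 cycling cells. These clusters were chosen after the data were seen and the difference is given with no test.

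T cell-like cells, the lymphocytes of cell-mediated immunity, gave 129 of the cycling cells. Their own cycling share was 2.66%, 1.44% and 1.27% in the vehicle libraries and 5.52%, 2.0% and 2.22% in the ginkgetin libraries. Vehicle 1 exceeded ginkgetin 2 and 3, so the groups overlapped, and the exact permutation test of 1.79% ± 0.756 against 3.24% ± 1.97 (SD, n = 3 each) gave p = 0.3. Among the cycling cells of a library, T cell-like cells formed 14.8%, 9.0% and 8.40% under vehicle and 36.4%, 16.8% and 17.3% under ginkgetin. These values did not overlap between groups, with p = 0.1 by exact permutation and 0.55 adjusted over 11 lineages. In ginkgetin 1, 33 of the cycling cells joined a cluster led by Cd40lg, Cd28 and Cxcr6.

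Another 40 cycling cells of ginkgetin 1 joined a cluster that stayed unnamed and was led by Ccl5, Cd8a, Gzmb and Cd7, genes of cytotoxic lymphocytes. They were 11.4% of the 350 cells that library had in the cluster. The other libraries with cells there had 1 of 8 (vehicle 1), 2 of 19 (vehicle 2) and 2 of 41 (ginkgetin 2) cycling. Ginkgetin 1 thus held most of this cluster as well as of its cycling cells.

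Endothelial-like cells, which line the liver's vessels, seldom met the rule although they were the most numerous lineage over the pooled libraries. In each vehicle library they were outnumbered by macrophage-like and by T cell-like cells. The endothelial-like cycling share was 1.10%, 1.79% and 2.17% in the vehicle libraries and 0.834%, 0.910% and 1.14% in the ginkgetin libraries. Vehicle 1 lay just below ginkgetin 3, and the other vehicle libraries lay above each ginkgetin library. The means were 1.69% ± 0.541 and 0.960% ± 0.157 (SD, n = 3 each), with an exact permutation p of 0.2. Counted as a part of all cycling cells, endothelial-like cells went from 7.43% ± 1.65 in vehicle to 16.0% ± 7.71 in ginkgetin libraries (SD, n = 3 each, exact permutation p = 0.2), while their part of all kept cells was 14.4% ± 4.08 and 35.7% ± 5.06. In replicates 1 and 2 the groups lay in different clusters. Of a cluster led by Fabp4 and Lyve1, 12 of 1088 cells (1.10%) of vehicle 1 and 9 of 477 (1.89%) of vehicle 2 cycled. Of a cluster led by Wnt2, a ligand of the central vein side, and Kit, 9 of 668 cells (1.35%) of ginkgetin 1 and 24 of 1179 (2.04%) of ginkgetin 2 cycled, but only 2 of 527 and 2 of 1667 in a cluster led by Ehd3 and Cyp26b1. All 9 cycling endothelial-like cells of vehicle 3 lay in a cluster of replicate 3 led by Cavin2, Cebpd and Ednrb with Vwf and Esm1, genes of larger vessels among them, where 9 of 402 cells (2.24%) of vehicle 3 and 3 of 148 (2.03%) of ginkgetin 3 cycled. A cluster of replicates 1 and 2 led by Edn1, Adgrg6 and Vwf, with 2 of 848 cells cycling, stayed unnamed and is not in the class, so vehicle 3 was not compared over the same cells as vehicle 1 and 2.

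Cells of the B lineage were divided into B cell-like and plasma cell-like. Plasma cell-like cells, which secrete antibody, cycled at 18.4%, 8.33% and 8.54% in the vehicle libraries and at 6.67%, 8.51% and 13.04% in the ginkgetin libraries, on 3 to 20 cycling cells each (exact permutation p = 0.6). Without cells that held markers of 2 lineages, the 20 of ginkgetin 2 fell to 10. With cycling cells clustered by themselves, a plasma cell-like cluster of 54 cells also held 5 B cell markers. Another with plasma cell markers, of 16 cells, stayed unnamed, and no cluster was named B cell-like. The division of cycling cells into B cell-like and plasma cell-like is therefore uncertain. B cell-like cells cycled at 1.28%, 0.377% and 0.749% in the vehicle libraries and at 0.317%, 0.275% and 0% in the ginkgetin libraries, where 0 of 377 cells of ginkgetin 3 allows a share of up to 0.796% if the limit is set at 3 counts. The B cell-like values did not overlap between groups but rested on at most 4 cells a library (exact permutation p = 0.1, adjusted 0.55). Jchain, the joining chain of secreted antibodies, was lower in cycling than in other plasma cell-like cells of each library. It was at 38853, 12886 and 21434 CPM in cycling cells of the vehicle libraries, against 104485, 137717 and 55291 CPM in the others. Under ginkgetin it was at 12824, 13827 and 26460 CPM against 103050, 78582 and 40065 CPM.

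NK cell-like cells, innate killers, cycled at 0.625%, 0% and 2.11% in the vehicle libraries and at 1.69%, 0.877% and 3.36% in the ginkgetin libraries, and 10 of their 17 cycling cells came from ginkgetin 3 (exact permutation p = 0.4). In vehicle 2 the count was 0 of 89 cells, which allows a share of up to 3.37% by the same limit of 3 counts. Of the 17 cells, 7 joined a cluster of replicate 3 led by Klra7, Klra1 and Trbc2, where 5 T cell markers were also detected. A cluster of replicates 1 and 2 led by Klra9, Gzmb and Cd7, with 5 of 306 cells cycling, stayed unnamed and is not in the class. The NK cell-like class was therefore not compared over the same cells in replicate 3 as in replicates 1 and 2.

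**Figure D3:**
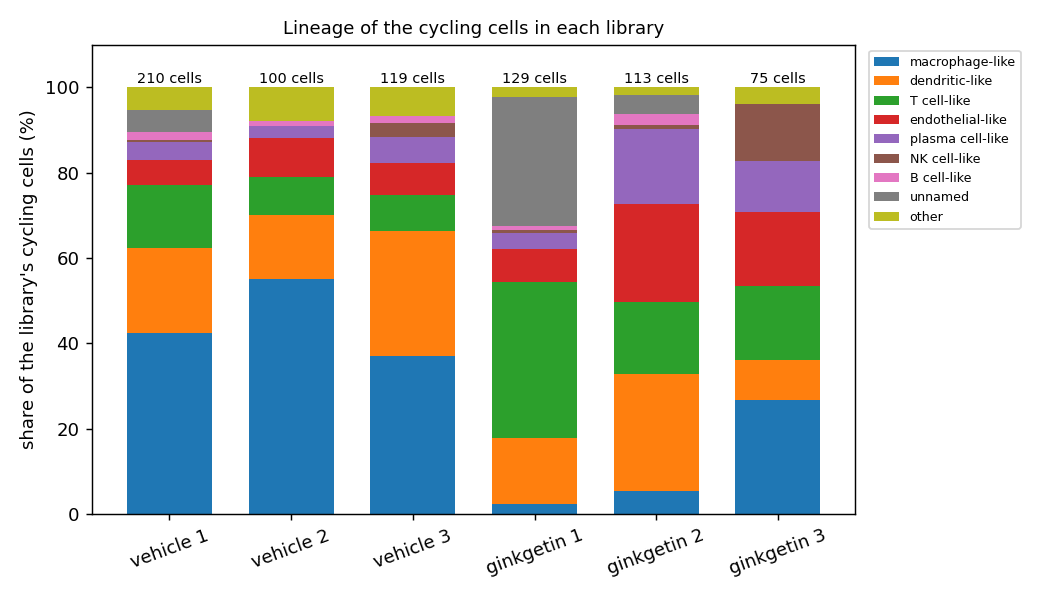
Lineage of the cycling cells as stacked shares, in percent of the cycling cells of each library, with the number of cycling cells above each bar ("other" joins the classes with few cells and cells without a majority class). Macrophage-like cells fill 37.0% to 55.0% of the vehicle bars and 2.33% to 26.7% of the ginkgetin bars.

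Within each library, cycling cells were compared with other cells weighted to the same lineages, as a description with no test, since the rule chose the cells on this contrast. Of 8670 genes with a mean of 10 CPM or more in either kind of cell, leaving out the 6 rule genes, 333 (3.84%) were at least 2 times higher in cycling cells in all 6 libraries and 86 were at least 2 times lower. Since the lists of cell-cycle genes resemble the genes of the rule, their counts follow in part from the choice of cells. The 34 S-phase genes had 32 members at least 2 times higher in all 6 libraries and a median difference of 2.46 on the log2(CPM + 1) scale. The 40 G2/M genes had 39 such members and a median of 4.89. For comparison, the median over all genes was -0.05.

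Among the S-phase genes, Rrm2, the small subunit of the enzyme that makes deoxynucleotides, differed most, with 211, 119 and 128 CPM in cycling cells of the vehicle libraries and 167, 204 and 243 CPM in those of the ginkgetin libraries. In the matched other cells of the 6 libraries it lay between 1.52 and 4.75 CPM. Pcna, the clamp of DNA polymerase, differed less, with 206 ± 60.1 against 56.6 ± 12.2 CPM (SD, n = 6), since it was well expressed in other cells. The 2 members that were not at least 2 times higher in all 6 libraries were Rpa2, which coats single-stranded DNA, and Rfc2, a subunit of the clamp loader. Their lowest log2 differences in a library were 0.98 and 0.90, with medians of 1.65 and 1.26.

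Among the G2/M genes, Cenpf, a kinetochore protein, had 254 ± 84.8 CPM in cycling and 1.09 ± 0.237 CPM in other cells (SD, n = 6), and Nusap1, which bundles spindle microtubules, 179 ± 36.1 against 0.609 ± 0.215 CPM. Cyclin B1 (Ccnb1), the mitotic cyclin, was at 87.7 ± 12.7 against 0.837 ± 0.491 CPM. Pttg1, securin, was the exception of the list, with 48.2 ± 12.3 CPM in cycling and 54.0 ± 11.1 CPM in other cells (SD, n = 6) and a log2 difference between -0.42 and 0.12. All 10 measured genes of a chromatin and tubulin list were at least 2 times higher in all 6 libraries. Of these, Hmgb2, a DNA-bending protein, was at 2337 ± 640 against 192 ± 91.8 CPM, and Stmn1, which destabilizes microtubules, at 1099 ± 196 against 31.7 ± 11.4 CPM (SD, n = 6).

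**Figure D4:**
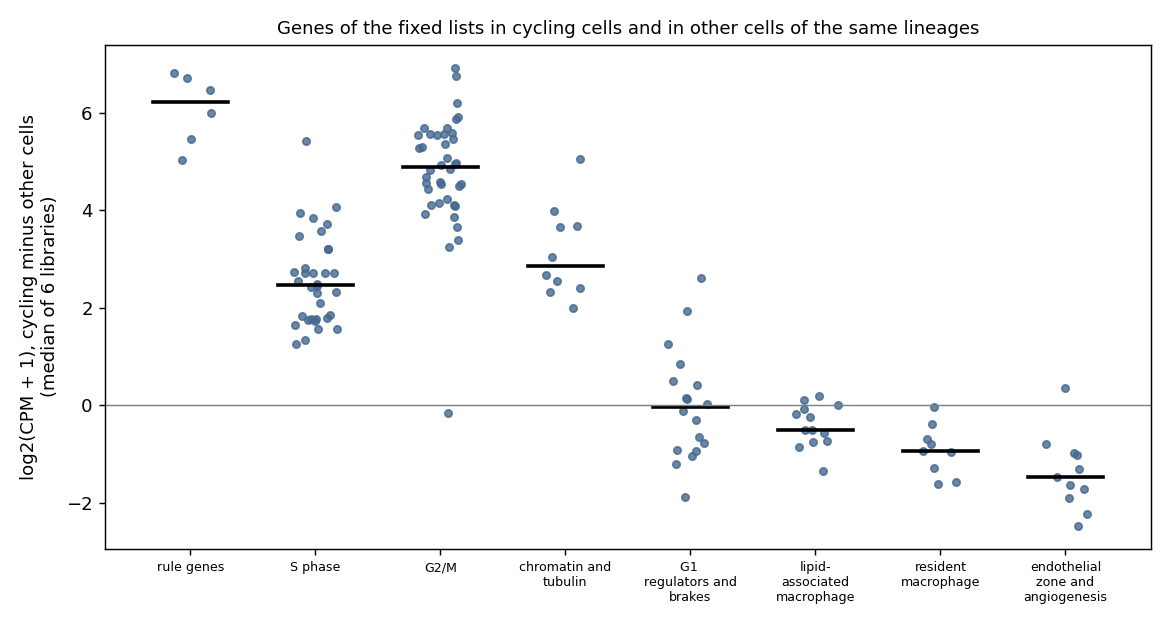
Median over 6 libraries of the difference in log2(CPM + 1) between cycling cells and lineage-matched other cells, with 1 point per gene of each list that reached 10 CPM and a black line at the list's median. S-phase, G2/M and chromatin genes lie above 0 except Pttg1 in the G2/M list, while the lists of G1 regulators and of lineage genes spread around or below 0.

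Lineage genes were, at the median, at or below their level in other cells. Of 12 T cell state genes that reached 10 CPM, 0 were at least 2 times higher in all 6 libraries, with a median of -0.38. Over all genes the share was 3.84% (333 of 8670), and a count of 0 in a list this short is close to that share. Of the 13 lipid-associated macrophage genes and the 9 resident macrophage genes, 0 were at least 2 times higher in cycling cells of all 6 libraries, with medians of -0.50 and -0.95 on the log2 scale. The 11 endothelial zone and angiogenesis genes that reached 10 CPM had 0 higher and 4 at least 2 times lower in all 6 libraries. Over all genes, 86 of 8670 were lower in this way. The 4 were Kdr and Flt1, receptors of vascular growth factor, Fcgr2b, an Fc receptor of sinusoidal endothelium, and Efnb1, an ephrin ligand. In endothelial-like cells alone, Efnb1 was at 30.4, 18.9 and 81.1 CPM in cycling cells of the vehicle libraries and at 97.9, 47.6 and 81.5 CPM in those of the ginkgetin libraries. The other endothelial-like cells had 185, 175 and 624 CPM and 175, 245 and 682 CPM.

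G1 regulators split by gene and by lineage. Against 333 of 8670 over all genes (3.84%), 2 of 18 such genes were at least 2 times higher in cycling cells of all 6 libraries. They were Cdkn2c, an inhibitor of the G1 kinases Cdk4 and Cdk6, with 103 ± 19.6 against 14.2 ± 3.26 CPM, and Rbl1, a relative of the retinoblastoma protein, with 46.8 ± 20.6 against 11.05 ± 3.94 CPM (SD, n = 6). Cyclin D2 (Ccnd2), which starts G1 kinase activity, was lower in cycling cells in each library, with 111 ± 59.6 against 254 ± 130 CPM.

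The level of Cdkn1a, the p21 inhibitor of cyclin-dependent kinases, depended on the lineage. In cycling endothelial-like cells it was at 1042, 735 and 541 CPM in the vehicle libraries and at 906, 885 and 946 CPM in the ginkgetin libraries, from 37 to 116 UMIs each. The other endothelial-like cells had 191, 300 and 294 CPM and 197, 112 and 140 CPM, so cycling and other cells did not overlap in the 6 libraries. Over the libraries with 10 or more cycling cells of a lineage, macrophage-like cells had 139 ± 74.9 CPM in cycling and 89.4 ± 44.1 CPM in other cells (SD, n = 4), and dendritic-like cells 91.6 ± 59.6 and 98.2 ± 31.1 CPM (SD, n = 5). T cell-like cells had 49.6 ± 34.5 and 16.4 ± 7.63 CPM (SD, n = 5), higher in cycling cells in 5 of 5 libraries. Cdkn2c was also highest in cycling endothelial-like cells, at 132, 189 and 270 CPM in the vehicle and 416, 504 and 449 CPM in the ginkgetin libraries. The endothelial levels of Cdkn1a and Cdkn2c were singled out after their values were seen.

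**Figure D5:**
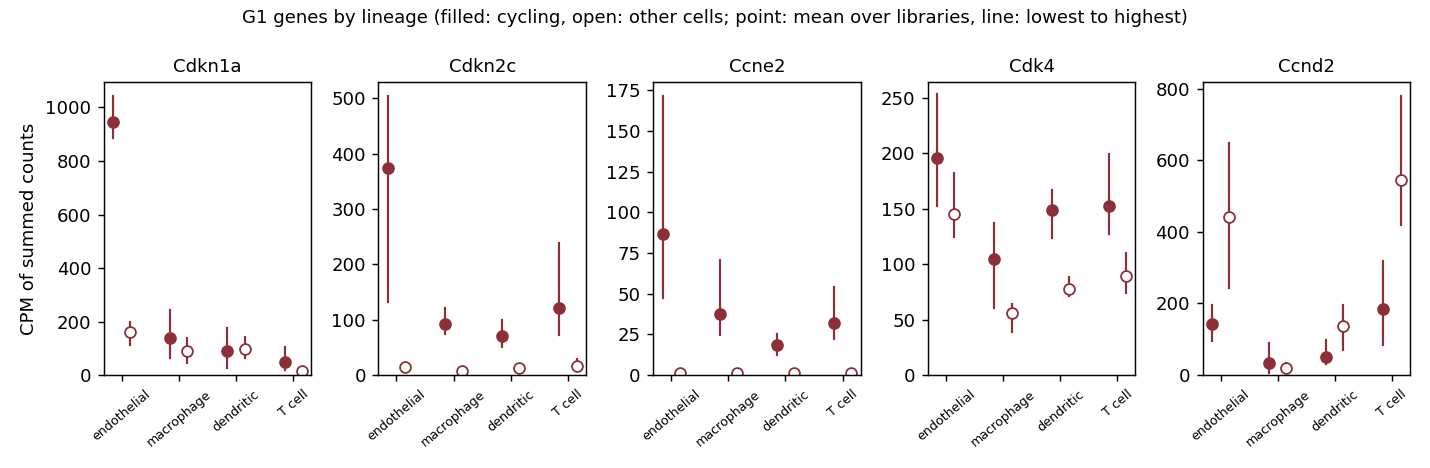
CPM of summed counts of 5 G1 genes in cycling (filled) and other (open) cells of 4 lineages, where a point is the mean over the libraries with 10 or more cycling cells of that lineage (4 libraries for endothelial-like and macrophage-like, 5 for dendritic-like and T cell-like cells) and a line runs from the lowest to the highest library. Cdkn1a stands at 945 CPM in cycling endothelial-like cells and at 139 CPM or less in the cycling cells of the other 3 lineages, and Ccnd2 is lower in cycling than in other endothelial-like, dendritic-like and T cell-like cells.

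The balance of S and G2/M transcripts overlapped between the groups. S-list UMIs formed 42.1%, 36.0% and 33.4% of the UMIs of the S and G2/M lists in cycling cells of the vehicle libraries and 35.9%, 31.7% and 38.8% in those of the ginkgetin libraries. The means were 37.2% ± 4.45 and 35.5% ± 3.56 (SD, n = 3 each), and the two-sided exact permutation test gave p = 0.6. The lists share no gene with the rule. By lineage, the S share of cycling endothelial-like cells was 26.3% ± 9.77 and 25.7% ± 8.71, and that of dendritic-like cells 35.5% ± 8.43 and 34.8% ± 3.01 (SD, n = 3 each). In cells below the rule, S-list UMIs made up 67.4% ± 3.02 in vehicle and 71.9% ± 3.32 in ginkgetin libraries (SD, n = 3 each, p = 0.2 by exact permutation). The rule's genes are mostly of G2/M, so the choice of cells could shape this share, and its part was not tested.

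Gene levels in cycling cells were compared between groups where at least 2 libraries a group had 10 cycling cells of a lineage, which held for dendritic-like cells (3 vehicle and 2 ginkgetin libraries) and T cell-like cells (2 vehicle and 3 ginkgetin libraries). In dendritic-like cells 0 of 5121 genes (0%) passed edgeR's quasi-likelihood test at an adjusted p under 0.05 and a fold over 2, while 536 had an unadjusted p under 0.05 and DESeq2 called 22. In T cell-like cells 0 of 3175 genes (0%) passed, 114 had an unadjusted p under 0.05, and DESeq2 called 2. With the replicate number as a block, 89 genes were called in dendritic-like and 49 in T cell-like cells, but each of these fits rests on 2 complete pairs. With the barcode set as a term the counts were 48 and 2. Both alternatives left fewer residual degrees of freedom (libraries less fitted terms) than the 3 set for a test, so no conclusion is drawn from their calls. No member of any list passed without the replicate block.

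Some genes with low p-values, named after their values were seen, show the size of these differences. Rps28, a ribosomal protein, was at 1572, 1819 and 2262 CPM in cycling dendritic-like cells of the vehicle libraries and at 3897 and 4939 CPM in those of ginkgetin 1 and 2 (log2 fold change 1.38 ± 0.22 SE, edgeR adjusted p = 0.398, with the barcode set 0.00298). Hspa1a, an inducible heat-shock chaperone, was at 1205, 1286 and 897 CPM in the vehicle and at 201 and 35.1 CPM in the ginkgetin libraries (-3.11 ± 0.68 SE, edgeR adjusted p = 0.398, with the barcode set 0.00361). Kdr, which marks endothelium, was at 5.33, 8.81 and 0 CPM against 42.1 and 129 CPM in these dendritic-like cells, and Stab2, another endothelial marker, at 1.33, 4.40 and 0 against 12.03 and 41.7 CPM. Ginkgetin 3, with 7 cycling cells and so not fitted, had 7.62 CPM of Kdr and 22.9 CPM of Stab2. The highest value of both genes came from ginkgetin 2, the library with markers of 2 lineages in 30.1% of its cycling cells.

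In cycling T cell-like cells, Gzmk, a granzyme of memory-type cytotoxic cells, was at 181 and 84.6 CPM in vehicle 1 and 3 and at 37.9, 24.2 and 34.4 CPM in the ginkgetin libraries (log2 fold change -1.93 ± 0.43 SE, edgeR adjusted p = 0.987, with the barcode set 0.237). Cd8a, the co-receptor of cytotoxic T cells, was at 420 and 176 CPM in vehicle and at 93.7, 121 and 142 CPM in ginkgetin libraries (-1.27 ± 0.41 SE, edgeR adjusted p = 0.987). In the 5 libraries fitted neither gene overlapped between the groups, in cycling or in other T cell-like cells. Vehicle 2, whose 9 cycling cells were too few for the fit, had 154 CPM of Gzmk and 122.9 CPM of Cd8a, so that Cd8a overlapped once it was included. The T cell-like cells of the groups lay in different clusters. A cluster led by Gzmk and Cd8b1 held 591 cells of vehicle 1 and 290 of vehicle 2 but 23 and 2 of ginkgetin 1 and 2, and the unnamed cluster led by Ccl5 and Cd8a, with 40 cycling cells of ginkgetin 1, is outside the class. Summed without weights over the cycling cells of the matched comparison, Cd8a was at 47.0, 14.8 and 15.4 CPM in the vehicle libraries. It was at 194, 29.3 and 61.9 CPM in the ginkgetin libraries, so the order of Cd8a in the class was not that in these cycling cells of all lineages. Mki67 itself was at 689 ± 175 CPM (SD, n = 2) and 697 ± 455 CPM (SD, n = 3) in cycling T cell-like cells of the vehicle and ginkgetin libraries.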

How the data were processed

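Single-cell libraries of liver non-parenchymal cells (10x Genomics Chromium) were analysed from the tables of raw UMI counts per gene and barcode deposited by the authors, 6 in number, with no normalization. The submitters' processing notes name the builds GRCm38 and mm10, and the aligner is not given in the sources used here. The labels' protocol also describes a total RNA kit. The tables held 33168 barcodes with at least 501 genes each. The study states a range of 250 to 5000 UMIs per cell. Here 5000 was applied to genes, as the members were defined so, and the UMI range was an alternative.

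The members, gene lists and markers were chosen with earlier results of these data known. Cells were clustered with scanpy 1.11.5 under python 3.11.15 on 2000 variable genes without cell-cycle genes, scaled to 10000 per cell, with 30 components, 15 neighbours and Leiden resolution 2 (leidenalg 0.10.2, igraph 0.11.9, seed 1), giving 47 clusters. A cluster was named with at least 3 detected markers (25% of cells and 2 times the other cells), and 4 stayed unnamed. No doublets were removed. Clusters held by 1 library may be that library and not a cell type.

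Shares were compared over libraries with two-sided exact permutation tests. Counts summed per library were tested by the quasi-likelihood method of edgeR 4.0.16 under R 4.3.3, with TMM scaling, its expression filter, the group as the only term and Benjamini-Hochberg adjustment, with DESeq2 1.42.0 as an alternative. CPM are summed counts per 1000000, and differences between kinds of cells are on log2(CPM + 1). The named genes are the 6 rule genes, the members of the lists, and any called genes with non-overlapping libraries and 50 CPM or more, of which there were 0. Others are said to be chosen after their values were seen. After the fits, edgeR was also run on simulated counts and recovered most of the 200 genes changed. The simulation left out the permutation tests and any difference between replicates or barcode sets. It therefore does not give the power of the tests in these libraries.

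The labels give both groups replicates 1, 2 and 3. Over 9738 genes, deviations from the group means correlated at 0.526, 0.576 and 0.801 between libraries of the same number, which meets the limit of 0.1 set for pairing. Vehicle 1 with ginkgetin 2 and vehicle 2 with ginkgetin 1 correlated at 0.484 and 0.504, and replicate 3 with the others between -0.698 and -0.610, so the split followed the barcode set as much as the number. Plots were drawn with matplotlib 3.10.9.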

Additional observations from a re-analysis of the deposited data

Results flagged for a closer look

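Barcodes outside the comparisons also met the cycling rule. The cell filter left out 191 of the 937 barcodes with 5 or more UMIs of the 6 genes, 125 of them for their number of genes. They were 23, 10 and 109 in the vehicle libraries and 5, 12 and 32 in the ginkgetin libraries. In vehicle 3, 94 of the 315 barcodes with 5000 genes or more met the rule (29.8%), and 70 of those left out there were macrophage-like. Without the filter, 4.28% of the barcodes of vehicle 3 were cycling.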

How the results depend on the processing

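Differences here are ginkgetin minus vehicle, in percentage points for shares. Of 252 alternative values of the 16 shares, 229 kept their direction and 23 reversed. None had an exact permutation p below 0.1, the smallest that 3 libraries against 3 allow. A threshold of 0.05 could therefore not be passed under any of them, whatever the values. In cells of 250 to 5000 UMIs, where 102 of 16821 cells met the rule, the reversed values were 0.129 for all kept cells, 0.0316 within B cell-like, 0.806 within plasma cell-like and -2.08 within dendritic-like cells, and, as parts of the cycling cells, 2.49 for macrophage-like, -10.8 for T cell-like and 1.08 for B cell-like cells. Thinning to 2000 UMIs with a limit of 3 UMIs in place of 5, so with both choices changed, gave 0.279 for all kept cells and 0.862 within macrophage-like cells. Naming cells by the class with most marker UMIs gave -1.55 within dendritic-like cells. Replicate 3 alone, chosen after seeing the data, gave 4.51 within plasma cell-like and -5.37 within dendritic-like cells and 5.41 for the S share. As parts of the cycling cells, B cell-like cells gave 0.0549 without the cell filter, 0.103 without cells of 2 lineages and 0.263 in replicates 1 and 2 alone, and dendritic-like cells 3.02 without the filter and 3.97 in replicates 1 and 2 alone. Leaving out 1 library at a time gave -4.16 to 0.972 within plasma cell-like cells, -0.449 to 5.83 and -1.14 to 0.187 for the NK cell-like and B cell-like parts of the cycling cells, and -3.55 to 0.786 for the S share, while the other shares kept their sign but moved in size, from -1.28 to -0.245 for all kept cells, 0.318 to 2.08 within T cell-like cells, 0.0144 to 5.69 within dendritic-like cells and 6.35 to 16.2 for the T cell-like part of the cycling cells. For 6 alternatives no library held a cycling cell of the lineage, so they gave no value. The cause of these reversals was not tested.

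In place of 0 genes called in dendritic-like cells, 265 were called without a filter on genes, 22 by DESeq2 and 48 with the barcode set as a term. In T cell-like cells these counts were 48, 2 and 2. Leaving out 1 library at a time gave 0 to 3 genes in dendritic-like cells, with 3 without vehicle 3. In T cell-like cells it gave 0 to 13, with 13 without vehicle 1 and 1 without vehicle 3, where the lone vehicle library left was assumed to vary like the ginkgetin libraries. With the replicate block 89 and 49 genes were called, and a sign-flip test over the 3 pairs, which cannot go below 0.25, called no share. The remaining 13 of 24 alternative gene counts stayed at 0. Exact permutation tests of 3 libraries against 3 cannot go below 0.1, and the gene tests had 3 against 2 and 2 against 3 libraries. The gene fits with the block or the barcode set left under 3 residual degrees of freedom.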

Other observations

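Outside the lists, the genes with the widest differences between cycling and lineage-matched other cells, as medians over 6 libraries on the log2(CPM + 1) scale and with no test, were Esco2, which ties sister chromatids together, at 5.74, the linker histone Hist1h1b at 5.54 and Mxd3, of the Myc network, at 5.37. The lowest were Ednrb, an endothelin receptor, at -3.24, the junction protein Jam2 at -2.62 and Ntn4, a netrin, at -2.56.

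When cycling cells were clustered by themselves, 1 cluster of 42 cells held the dendritic markers Xcr1, Clec9a, Flt3, Zbtb46 and Wdfy4 but was led by Dcn, Clu and Spp1, genes known from stromal and epithelial cells. Of its cells, 28 came from ginkgetin 2. Another cluster of 42 cells held the T cell markers Cd3e, Cd3d and Cd3g, was led by Gzma, Gzmb and Cd7, and had 40 cells from ginkgetin 1.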
